A study of Mus musculus with 6 samples.

Results

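The genes described here build caveolae and shape or mend the muscle cell membrane: the caveolins Cav1, Cav2 and Cav3, the cavins Cavin1, Cavin2, Cavin3 and Cavin4, the ferlins Dysf and Myof, and the membrane-curving protein Bin1. The set was chosen with earlier results of these data known. Its rows were taken by gene name, and all 10 were found among the 55420 rows of the table, each once. All 10 also passed the filter on low values that left 12528 genes for testing. The RNA came from C2C12, a mouse myoblast line whose cells fuse into myotubes when serum is reduced. The design compares 3 WT libraries with 3 libraries labelled FHL3 KO, a knockout of a LIM-domain protein of muscle, and asks how the genotypes differ. Both groups were grown in fetal bovine serum, switched to medium with horse serum for differentiation and taken on day 4. The labels name neither the clone or clones behind the knockout nor the way the allele was made, and the effect of a clone cannot be told apart from that of the genotype. Separate cultures are not stated either, so each p-value reflects the scatter of these 6 libraries alone, and that scatter may be technical.

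Caveolae are small flask-shaped pits of the plasma membrane. Caveolins are hairpin proteins embedded in the inner leaflet, and cavins form a coat on them from the cytosol. In muscle, caveolae flatten under stretch and give the cell spare membrane, while Cav3 and Bin1 take part in forming T-tubules, the invaginations that carry the action potential into the fibre. Ferlins are large tail-anchored proteins with C2 domains. Dysferlin, the product of Dysf, acts in the resealing of torn membrane, and myoferlin, the product of Myof, is known from myoblast fusion.

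The deposited values were read as FPKM, a level per kilobase of gene and per size of the library, which allows levels of different genes to be compared. They summed to between 425080 and 494176 per library. Counts were not given, so the sequencing depth is unknown. Across genes, correlations of log2 values were 0.977 to 0.991 for libraries of the same group and 0.930 to 0.959 otherwise. WT replicate 1 held 32 tested genes above 1 FPKM and above 10 times every other library, while each other library held 0 or 1. Fhl3 RNA was not lower under the knockout label: WT libraries read 27.8, 30.0 and 33.7 FPKM, and the others 57.2, 53.5 and 58.9 FPKM (log2 change 0.87, limma adjusted p = 0.000547). One value for the whole gene cannot show the edited site. Groups are therefore called WT and knockout-labelled, and a gene "rose" or "fell" in the latter relative to WT. Myog, the factor of terminal myogenic differentiation, rose from 250.1 ± 47 to 916.8 ± 96 FPKM (SD, n = 3 each), and all 6 myotube markers of a list (Myog, Ckm, Myh3, Tnnt3, Acta1 and Mymk) rose.

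The muscle caveolin Cav3, the muscle cavin Cavin4 and Bin1 rose, and Cav2 and Cavin2 fell. In such bulk RNA, fewer cells of a type and less RNA per cell cannot be told apart. The myotube markers moved in the same direction as Cav3, Cavin4 and Bin1, and opposite to Cav2 and Cavin2. Cav1, Cavin1, Cavin3, Dysf and Myof passed no test. Thus 3 of the 10 genes rose and 2 fell at an adjusted p under 0.05 of limma, a linear model fitted across all tested genes. Over all 12528 genes 40.8% were called, 19.7% as rises and 21.2% as falls, so the members' share of 5 in 10 lay near the background. The median log2 change of the 10 genes was 0.08, beside -0.01 for all genes tested. For 7 of the 10 the groups showed no overlap, beside 53.8% of all genes tested. In absolute log2 terms, 1.501% of tested genes changed more than Cav3 and 0.91% more than Cavin2. When each library was scaled to the same FPKM sum, 36.2% of all calls were rises in place of 48.2%, with 3 rises and 2 falls among the members under both.

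**Figure D1:**
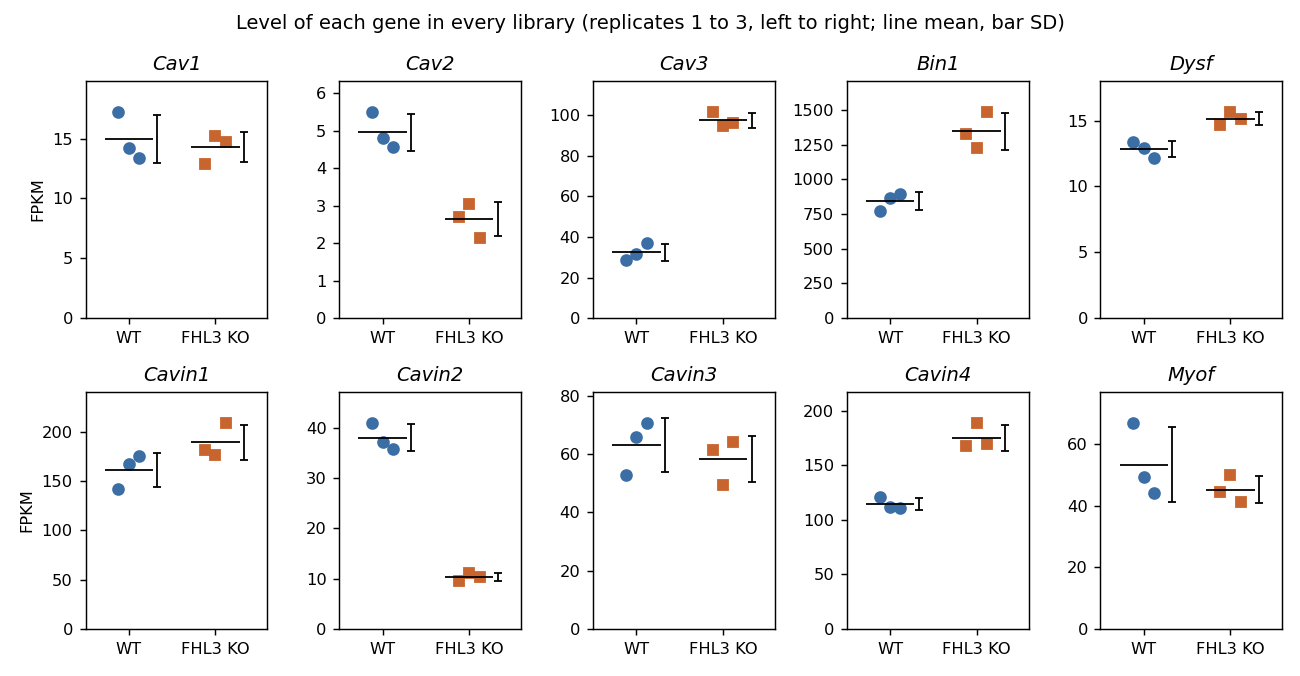
Level of each of the 10 genes in FPKM (vertical axis, from 0) in the 3 WT libraries (circles) and the 3 knockout-labelled libraries (squares), with the mean as a line and the SD as a bar. Cav3 lies between 28.9 and 37.0 FPKM in WT and between 94.7 and 101.4 FPKM in the other group, while Cav1, Cavin3 and Myof overlap.

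Cav3, the caveolin of striated muscle, showed the largest rise of the set. Its 3 WT levels were 28.9, 31.4 and 37.0 FPKM, and its knockout-labelled levels were 101.4, 94.7 and 95.8 FPKM. The groups lay far apart, and all 3 knockout-labelled libraries were far above the highest WT library. Cav3 lies on the plus strand at chr6:112459505-112472872 (GRCm38). Mean levels of 32.4 ± 4.1 and 97.3 ± 3.6 FPKM (SD, n = 3 each) gave a log2 change of 1.56 (SE 0.10, limma adjusted p = 8.8e-05). Among the 10 genes Cav3 moved from the seventh place in level in WT to the fourth.

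Cav1, the caveolin of most other cell types, read 17.2, 14.2 and 13.4 FPKM in WT, against 12.9, 15.2 and 14.7 FPKM in the knockout-labelled libraries. The groups overlapped, and WT replicate 1 was the highest of all 6 libraries. Its log2 change was -0.06, with a 95% confidence interval from -0.33 to 0.21 (limma adjusted p = 0.718). Without WT replicate 1 the change was 0.04 and without knockout-labelled replicate 1 it was 0.01.

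Cav2, which depends on Cav1 to reach the cell surface, was the lowest of the set in both groups. In WT it read 5.50, 4.79 and 4.57 FPKM, compared with 2.70, 3.05 and 2.15 FPKM among knockout-labelled libraries. Every WT library was above every library of the other group. The log2 change was -0.72 (SE 0.13, limma adjusted p = 0.00477), and the level fell to 0.532 of that in WT. Cav1 and Cav2 are neighbours on chromosome 6, on the same strand and 17219 bases apart (Cav2 at 17281185 to 17289115 and Cav1 at 17306335 to 17341452, GRCm38). The ratio of Cav1 to Cav2 FPKM was 3.13, 2.97 and 2.93 in WT and 4.77, 4.99 and 6.86 in the knockout-labelled libraries, so the neighbours did not keep 1 ratio.

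The caveolin mixture thus shifted towards Cav3. Of the summed FPKM of the 3 caveolins, Cav3 took 55.9%, 62.3% and 67.3% in WT and 86.7%, 83.8% and 85.01% in the knockout-labelled libraries. The groups did not overlap, and the mean share went from 61.8% ± 5.7 to 85.2% ± 1.4 (SD, n = 3 each). The share of Cav1 went from 28.7% ± 4.5 to 12.5% ± 1.3 and that of Cav2 from 9.49% ± 1.2 to 2.31% ± 0.40, both without overlap. The summed caveolin level was 52.3 ± 2.3 FPKM in WT and 114.2 ± 2.4 FPKM in the other group. The Cav3 transcript is short, with 1157 exonic bases against 3444 for Cav1. Weighted by exon length, which approximates a share of fragments, Cav3 took 35.7% ± 5.5 in WT and 66.01% ± 2.6 in the knockout-labelled libraries.

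Among the cavins, Cavin1 is the core of the coat and is needed for caveolae to form. It had the highest mean of the 4 in both groups, with WT libraries at 142.0, 166.8 and 175.3 FPKM and the others at 181.6, 176.4 and 209.1 FPKM. The groups nearly touched, with the highest WT library just below the lowest knockout-labelled one. The log2 change was 0.23, with an interval from -0.03 to 0.49 (limma adjusted p = 0.135). After each library's trend with exon length and GC content was removed, it was -0.02. Per summed caveolin FPKM, Cavin1 stood at 2.75, 3.31 and 3.19 in WT and at 1.55, 1.56 and 1.85 in the knockout-labelled libraries, with no overlap.

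Cavin2, a cavin that binds phosphatidylserine and shapes the caveolar membrane, showed the largest change of the set. WT libraries read 41.1, 37.2 and 35.9 FPKM, against 9.56, 11.2 and 10.4 FPKM in the knockout-labelled libraries. All WT libraries were far above all knockout-labelled ones. The gene lies on the plus strand at chr1:51289126-51302960. Mean levels of 38.0 ± 2.7 and 10.4 ± 0.81 FPKM (SD, n = 3 each) gave a log2 change of -1.78 (SE 0.092, limma adjusted p = 3.41e-05). It was the sixth most abundant of the 10 genes in WT and the ninth in the knockout-labelled libraries.

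Cavin4, the cavin restricted to muscle, moved the other way. Its 3 WT levels were 121.2, 111.8 and 111.1 FPKM, and its knockout-labelled levels were 167.5, 189.1 and 169.4 FPKM. The groups did not overlap, and the log2 change was 0.61 (SE 0.084, limma adjusted p = 0.00163). The gene lies on the plus strand at chr4:48663514-48673502. The ratio of Cavin4 to Cavin2 was 2.95, 3.01 and 3.10 in WT and 17.5, 16.9 and 16.3 in the knockout-labelled libraries, close together within each group.

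Cavin3, which binds protein kinase C delta, read 52.9, 65.7 and 70.8 FPKM in WT, against 61.5, 49.3 and 64.3 FPKM in the knockout-labelled libraries. The groups overlapped. On the log2 scale the difference was -0.11, with an interval from -0.44 to 0.22 (limma adjusted p = 0.553). It was 0.0043 without knockout-labelled replicate 2. After removal of the trend with length and GC content it was -0.34 and was called (limma adjusted p = 0.00853). A predicted gene on the opposite strand, Gm45667, overlaps 374 of the 1662 exonic bases of Cavin3. The strand setting of the counting is not known here, which leaves the value of Cavin3 uncertain.

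Among the cavins the share of the muscle form was higher, and those of Cavin2 and Cavin3 were lower. Cavin4 took 30.5% ± 3.0 of the summed cavin FPKM in WT and 40.5% ± 3.6 in the knockout-labelled libraries, from 33.9%, 29.3% and 28.3% to 39.9%, 44.4% and 37.4%. Cavin2 took 10.1% ± 1.2 and 2.40% ± 0.19, and Cavin3 16.7% ± 1.7 and 13.5% ± 1.6. The Cavin3 shares of the groups overlapped when weighted by exon length. Cavin1 held 42.7% ± 2.6 and 43.6% ± 2.4, with overlapping groups. The summed cavin level was 377.2 ± 18 FPKM in WT and 433.1 ± 18 FPKM in the other group.

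**Figure D2:**
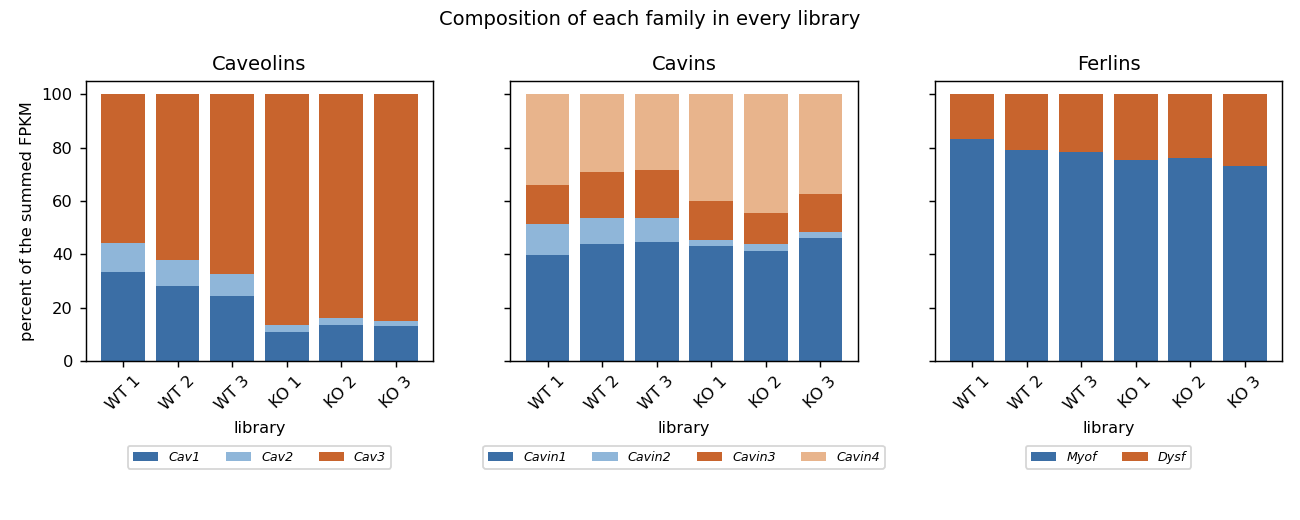
Share of each caveolin, cavin and ferlin in the summed FPKM of its family (vertical axis, percent) for each of the 6 libraries (KO stands for the knockout-labelled libraries). Cav3 takes 55.9% to 67.3% of caveolin FPKM in WT and 83.8% to 86.7% in the other group, and Cavin2 shrinks from 10.1% to 2.40% of cavin FPKM on average.

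Dysf, which codes for dysferlin, was slightly higher in the knockout-labelled libraries without a call. In WT it read 13.4, 12.9 and 12.2 FPKM, compared with 14.7, 15.6 and 15.1 FPKM among knockout-labelled libraries. The groups did not overlap. On the log2 scale it differed by 0.22 (SE 0.080), with an interval from 0.04 to 0.41, and the limma adjusted p was 0.059. It was called after quantile normalization (0.0398), with median-of-ratios scaling (0.0425) and after length correction (0.00470, log2 change 0.37), and was 0.389 with scaling to the same sum (log2 change 0.12).

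Myof, which codes for myoferlin, was the more abundant ferlin in every library. WT libraries read 66.9, 49.1 and 43.9 FPKM, against 44.5, 49.8 and 41.0 FPKM in the knockout-labelled libraries. The groups overlapped, and WT replicate 1 stood above the other 5 libraries. Its log2 change was -0.22, with an interval from -0.58 to 0.15 (limma adjusted p = 0.297), and it was -0.05 without WT replicate 1. Dysf took 16.7%, 20.8% and 21.7% of the summed ferlin FPKM in WT and 24.8%, 23.9% and 26.9% in the knockout-labelled libraries. The difference of 5.46 percentage points in the mean share was 3.93 without WT replicate 1. The other ferlins were near the floor of the table, with Otof and Fer1l4 listed at 0 in all libraries and Fer1l5 at 0.586 and 0.552 FPKM on average.

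Bin1, whose BAR domain bends membrane into tubules, was the most abundant of the 10 genes in both groups. Its 3 WT levels were 768.8, 862.6 and 895.5 FPKM, and its knockout-labelled levels were 1324.6, 1224.04 and 1484.4 FPKM. The groups did not overlap. Mean levels of 842.3 ± 66 and 1344 ± 131 FPKM (SD, n = 3 each) gave a log2 change of 0.67 (SE 0.12, limma adjusted p = 0.00421). A noncoding gene on the opposite strand, A830052D11Rik, overlaps 6.22% of the exonic bases of Bin1. Bin1 has muscle and non-muscle splice forms, which a single value per gene does not separate. Its rise was smaller than that of Cav3, and the ratio of Bin1 to Cav3 went from 26.6, 27.5 and 24.2 in WT to 13.1, 12.9 and 15.5.

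**Figure D3:**
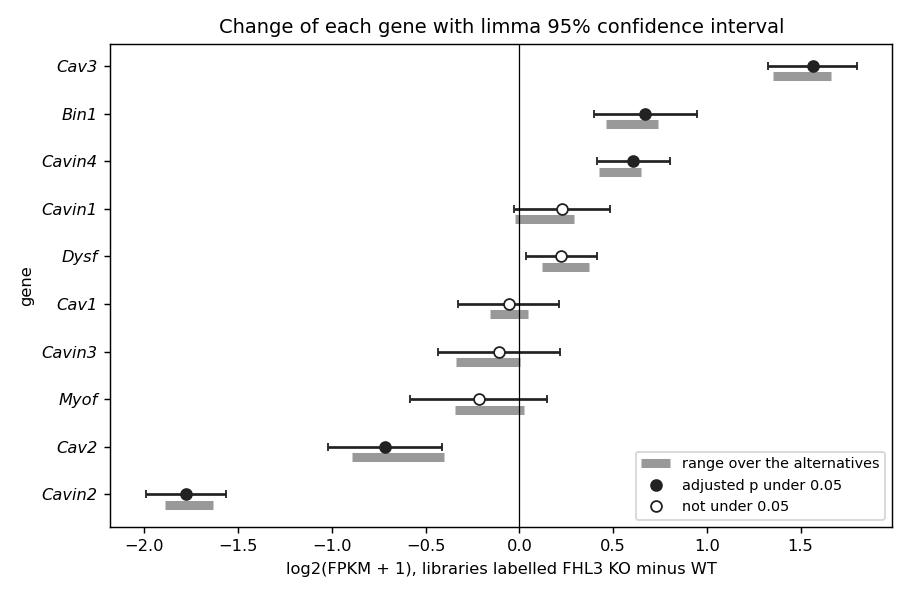
Log2(FPKM + 1) change of each gene, knockout-labelled libraries minus WT (horizontal axis), with the limma 95% confidence interval; filled points have an adjusted p under 0.05, and grey bars span the values under the alternative settings. Cav3 at 1.56 and Cavin2 at -1.78 mark the ends, and the 5 open points lie between -0.22 and 0.23.

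In order of level, WT ran from Bin1 through Cavin1, Cavin4, Cavin3, Myof, Cavin2, Cav3, Cav1 and Dysf to Cav2. The libraries of neighbours in this order overlapped for Cavin3 with Myof and for Cavin2 with Cav3. In the knockout-labelled libraries the order was Bin1, Cavin1, Cavin4, Cav3, Cavin3, Myof, Dysf, Cav1, Cavin2 and Cav2. Here Cavin1 overlapped with Cavin4, Cavin3 with Myof, and Dysf with Cav1.

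The libraries of 1 group also differed among themselves in an ordered way across the genes. In WT replicate 1, Cav1, Cav2, Cavin2, Cavin4, Dysf and Myof were at their WT maximum and Cav3, Cavin1, Cavin3 and Bin1 at their WT minimum. The same 6 genes were at their maximum, and the same 4 at their minimum, in knockout-labelled replicate 2 within its group. The 6 have a transcript GC content of 41.1% to 55.5% and the 4 of 56.4% to 58.3%. Across the 10 genes the deviation of a library from its group mean correlated with GC content at -0.76 for WT replicate 1 and at -0.83 for knockout-labelled replicate 2. Over 12493 genes these values were -0.32 and -0.31. Exon length correlated with the same deviations at 0.63 and 0.40 across the 10 genes, and at 0.32 and 0.38 over 12493 genes. Whether the deviations follow GC content or length was not tested. The genes share libraries, so the values are descriptions without a test. The change between groups also correlated with GC content, at 0.66 across the 10 genes and 0.36 over all. With exon length it correlated at -0.29 and -0.13. With each library's trend with length and GC content removed, the log2 changes were 1.35 for Cav3, 0.52 for Cavin4, 0.46 for Bin1, -0.40 for Cav2 and -1.63 for Cavin2. All 5 were still called, with limma adjusted p values of at most 0.00893. The correction thus moved Cav2 most in proportion among these 5.

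Promoter sequences are shown for the caveolin and the cavin that rose and for the caveolin and the cavin that fell, so that the stretches can be compared. They are the 250 bases before the RefSeq start on the GRCm38.p6 build, written 5′ to 3′ on the strand of the gene. Such stretches were examined for 8 of the 10 genes. Capitals mark matches on either strand to the E-box CANNTG, which myogenic bHLH factors bind, to its form CAGCTG, to the TATA box TATAAA, to the CCAAT box, to the YY1 core CCATNTT or to the CArG box of serum response factor.
Cav3 (chr6:112459255-112459504, plus strand): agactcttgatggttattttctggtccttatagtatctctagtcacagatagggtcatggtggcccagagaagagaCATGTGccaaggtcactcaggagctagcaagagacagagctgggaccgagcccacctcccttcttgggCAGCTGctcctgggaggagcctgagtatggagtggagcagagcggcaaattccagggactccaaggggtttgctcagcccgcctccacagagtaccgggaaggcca
Cavin4 (chr4:48663264-48663513, plus strand): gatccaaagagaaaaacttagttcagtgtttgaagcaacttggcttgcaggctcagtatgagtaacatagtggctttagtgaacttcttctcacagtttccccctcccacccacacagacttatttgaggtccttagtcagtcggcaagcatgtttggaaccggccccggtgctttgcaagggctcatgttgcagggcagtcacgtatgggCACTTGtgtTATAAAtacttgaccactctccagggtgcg
Cav2 (chr6:17280935-17281184, plus strand): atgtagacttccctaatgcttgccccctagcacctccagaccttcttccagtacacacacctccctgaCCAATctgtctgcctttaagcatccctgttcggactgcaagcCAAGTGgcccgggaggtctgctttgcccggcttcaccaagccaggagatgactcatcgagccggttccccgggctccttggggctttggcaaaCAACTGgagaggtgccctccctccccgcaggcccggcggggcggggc
Cavin2 (chr1:51288876-51289125, plus strand): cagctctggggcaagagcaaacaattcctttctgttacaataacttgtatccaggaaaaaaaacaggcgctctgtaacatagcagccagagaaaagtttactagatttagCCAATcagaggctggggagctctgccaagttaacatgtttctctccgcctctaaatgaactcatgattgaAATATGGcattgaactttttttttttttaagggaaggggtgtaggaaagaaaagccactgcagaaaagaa

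Cav3 holds the E-box form CAGCTG at positions -106 to -101 before the start and a further CANNTG match at -174 to -169. A CAGCTG match is present in 13.001% of the 32851 promoter stretches of the same length, and a CANNTG match, which includes CAGCTG, in 66.2%. Cavin4 holds a CANNTG match at -39 to -34 and a TATA box at -30 to -25, a motif of 12.4% of all stretches. Cav2, which fell, holds CANNTG matches at -140 to -135 and at -47 to -42 and a CCAAT box at -182 to -178. Cavin2 holds no CANNTG match, a CCAAT box at -140 to -136 and a match to the YY1 core, read on the opposite strand, at -70 to -64. The YY1 core is present in 12.4% of all stretches and CCAAT in 33.8%. Of the 11 stretches of the 8 genes, 1 held CAGCTG (Cav3) and 1 held the YY1 core (Cavin2), near the shares over all stretches. These 11 stretches leave out Cavin3 and Bin1, of which Bin1 was called, so nothing is said here of their promoters. Whether RefSeq holds entries for those genes is not stated here. Stretches on chromosome 18, where Bin1 lies, were left out of the search of the members. The shares over all stretches were taken without this exclusion. The CArG box search covered the same 11 stretches. The CArG box was found in none of them and in 1.47% of all stretches. Cav1, which was not called, held a CANNTG match in both its stretches and a TATA match in 1 of them. The 2 stretches of Cavin1 overlap almost wholly. A match describes letters and is not evidence of binding.

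Profiles were ranked without the members and without genes bearing predicted-gene or clone symbols. By distance between log2 profiles over the 6 libraries, the remaining tested gene most like Cav3 was Myoz2 (distance 0.157). Myoz2, a Z-disc gene that binds calcineurin, stood at 37.1 ± 5.3 and 112.1 ± 5.2 FPKM. Saysd1 (0.206) and the skeletal actin Acta1 (0.214) followed, the latter at 1927 ± 84 and 5461 ± 236 FPKM and uncertain, since it shares near-identical sequence with other actins. The genes most like Cav1 were Wdr11 (0.0701), the receptor phosphatase Ptprm (0.0879) and the zinc finger gene Zfp219 (0.0956), none of them called. The distance takes in the difference between the groups as well as the spread within them.

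Caveolae rest on accessory proteins, of which the list held 18 genes, 15 of them tested. Of these 5 rose, 2 fell and 8 were not called, with a median log2 change of 0.12. The 7 calls in 15 lay near the 40.8% over all genes tested. The split was 3 rises and 3 falls with scaling to the same sum, 3 and 4 after quantile normalization, and 5 and 6 after length and GC correction. Pacsin3, the muscle form of the F-BAR proteins that bend membrane at the caveolar neck, rose from 47.4, 65.7 and 65.8 FPKM to 122.7, 102.2 and 147.01 FPKM (log2 change 1.04, SE 0.17, limma adjusted p = 0.00317). The related Pacsin1 was low, at 0.576 ± 0.13 and 1.49 ± 0.40 FPKM, and was called as a rise. It passed the filter on low values only through the knockout-labelled group. With a filter at 5 FPKM, which left Pacsin1 out, the list gave 3 rises and 2 falls. The widely expressed Pacsin2 was at 131.8 and 119.2 FPKM and was not called (limma adjusted p = 0.147).

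The EHD ATPases, which ring the caveolar neck and hold it at the surface, gave calls in both directions, of which that of Ehd3 held under every alternative. Ehd3 fell from 8.62, 6.87 and 7.09 FPKM to 3.02, 3.31 and 3.28 FPKM (log2 change -1.02, SE 0.11, limma adjusted p = 0.000672). Ehd2, the member most closely tied to caveolae, stood at 61.6 ± 1.9 and 51.2 ± 3.4 FPKM. It was called as a fall at a log2 change of -0.26 (limma adjusted p = 0.032), but the adjusted p lay above 0.05 when any of 5 libraries was left out, all but knockout-labelled replicate 2. Ehd1 and Ehd4 were called as rises at log2 changes of 0.28 and 0.25. Both calls ended after quantile normalization (limma adjusted p = 0.142 and 0.35), with scaling to the same sum (0.0948 and 0.191) and after length and GC correction (0.754 and 0.201). The Ehd4 call also ended when any single library was left out, and the Ehd1 call without WT replicate 1 or 2 or knockout-labelled replicate 1 or 3. The raft proteins Flot1 and Flot2 were at 50.3 and 54.7 FPKM and at 44.01 and 42.1 FPKM, without a call.

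Partners of dysferlin and other genes of membrane repair numbered 28, with 23 tested. Of these 8 rose, 4 fell and 11 were not called, with a median log2 change of 0.12. The 12 calls in 23 compare with 40.8% over all genes tested, and the rises and falls with 19.7% and 21.2%. The same settings in the same order gave 6 rises and 5 falls, 5 and 9, and 6 and 7. Trim72, the muscle protein MG53 that gathers vesicles at a membrane tear, rose from 87.6, 105.5 and 116.3 FPKM to 173.7, 157.6 and 210.6 FPKM (log2 change 0.80, limma adjusted p = 0.00418). The calcium-activated protease Capn1 rose from 33.9 ± 3.3 to 53.5 ± 3.7 FPKM and its muscle relative Capn3 from 5.29 ± 0.26 to 7.69 ± 0.68 FPKM. The related Capns1 also rose (log2 change 0.34, limma adjusted p = 0.0214). Capn2, at 108.6 and 98.4 FPKM, was not called (log2 change -0.14, limma adjusted p = 0.131). The lysosomal membrane gene Lamp1 rose from 299.3 ± 12 to 449.4 ± 22 FPKM. The Lamp1 call ended after quantile normalization (0.27, limma adjusted p = 0.133).

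The 4 falls of that list were Ahnak, Anxa1, S100a11 and Vps4b. Ahnak, a giant scaffold protein that binds dysferlin, fell from 101.2, 97.2 and 79.5 FPKM to 39.1, 47.5 and 35.2 FPKM (log2 change -1.17, SE 0.14, limma adjusted p = 0.000801). Anxa1, which seals membrane in a calcium-dependent way, fell from 485.7 ± 17 to 290.7 ± 16 FPKM and the annexin partner S100a11 from 833.2 ± 85 to 540.8 ± 83 FPKM. The S100a11 call ended without WT replicate 2 (limma adjusted p = 0.0505) and without a filter on low values (0.0513). Vps4b of the ESCRT machinery fell from 16.1 ± 1.9 to 11.6 ± 1.5 FPKM, and its log2 change of -0.44 was -0.03 after length and GC correction. Its adjusted p also lay above 0.05 without WT replicate 1 or 2, without knockout-labelled replicate 1 or 3, and without a filter. The related Vps4a was called as a rise, from 19.1 ± 1.3 to 23.4 ± 1.9 FPKM (log2 change 0.28, limma adjusted p = 0.0469). Chmp4b, Pdcd6 and Pdcd6ip of the same list were not called, at log2 changes between 0.22 and 0.24. Anxa2, Anxa5 and Anxa6 were not called, at log2 changes between -0.11 and -0.06.

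The list of membrane curvature and T-tubule genes held 26 genes, 23 of them tested. It gave 3 rises, 3 falls and 17 genes without a call, with a median log2 change of 0.03. The 6 calls in 23 compare with 40.8% over all genes tested. With scaling to the same sum there were 3 rises and 5 falls, after quantile normalization 3 and 7, after length correction 5 and 5, and after length and GC correction 4 and 5. The calcium channel subunit Cacna1s, the voltage sensor of the T-tubule, rose from 21.2, 21.9 and 20.9 FPKM to 36.9, 42.9 and 38.2 FPKM (log2 change 0.85, SE 0.083, limma adjusted p = 0.000395). Jph2, which ties the T-tubule to the calcium store, rose from 92.7 ± 6.9 to 145.4 ± 15 FPKM, and Bin3, a relative of Bin1, from 21.4 ± 2.01 to 35.1 ± 1.3 FPKM. Amph, the neuronal amphiphysin, was listed at 0 in all libraries, and Bin2 stood below 1 FPKM.

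Mtm1, the phosphoinositide phosphatase whose loss causes myotubular myopathy, fell most in this list. WT libraries read 4.63, 3.66 and 3.22 FPKM, against 0.966, 1.32 and 0.717 FPKM in the other group, with no overlap. The log2 change was -1.27 (SE 0.16, limma adjusted p = 0.0012), and -0.68 after length and GC correction. Dynamin 1, Dnm1, fell from 15.9 ± 2.1 to 9.23 ± 1.6 FPKM, while Dnm2, the dynamin of muscle that acts with Bin1 and Mtm1, was at 32.9 ± 0.20 and 35.5 ± 0.58 FPKM without a call (limma adjusted p = 0.246). The fall of Pip5k1a, which makes the lipid that Bin1 binds, was small (log2 change -0.24) and its adjusted p lay above 0.05 when any of the same 5 libraries as for Ehd2 was left out.

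**Figure D4:**
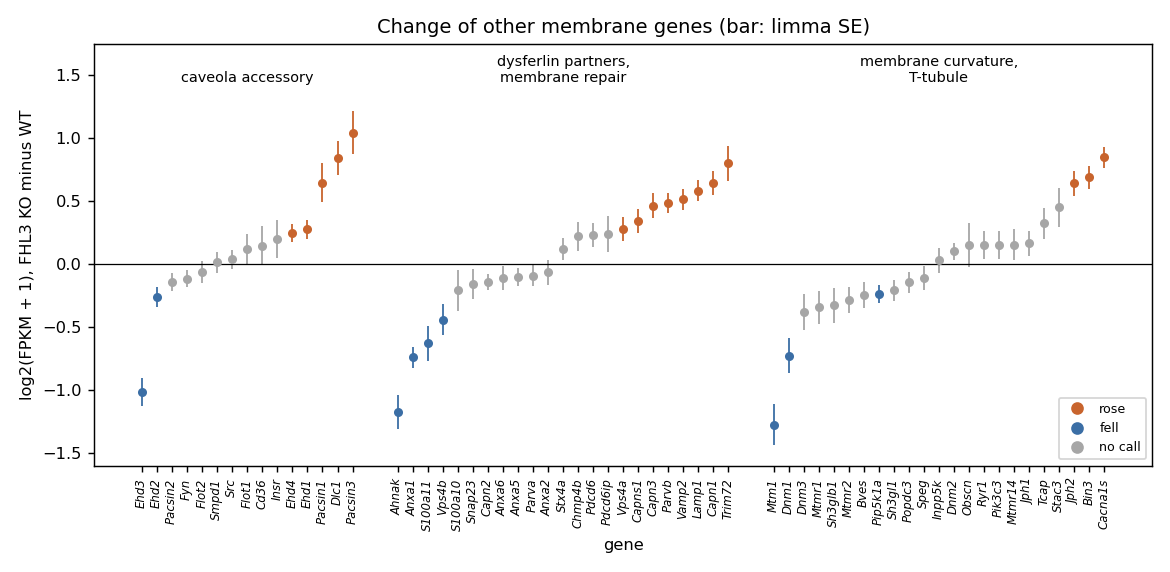
Log2(FPKM + 1) change, knockout-labelled libraries minus WT (vertical axis), of each tested gene of the 3 lists, ordered by size within a list, with the limma SE as a bar and the call as colour. Pacsin3, Trim72 and Cacna1s stand at the upper end of their lists and Ehd3, Ahnak and Mtm1 at the lower end.

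Adipocytes and endothelial cells also carry many caveolae, and their markers were near 0. All 5 adipocyte markers and all 6 endothelial markers of the lists stayed below 1 FPKM in every library, with Adipoq, Plin1, Lep and Emcn at 0 in all. Their summed levels were at most 0.262 FPKM for adipocytes and 1.37 FPKM for endothelial cells. The 5 fibroblast markers summed to between 147.5 and 168.6 FPKM in WT and between 20.9 and 22.8 FPKM in the knockout-labelled libraries. Dcn alone made up most of these sums, and fell from a mean of 151.9 to 12.1 FPKM. Col1a1 rose from 4.16 to 8.67 FPKM, Pdgfra was not called, Lum stayed below 1 FPKM and Thy1 was at 0 throughout. The 5 markers of undifferentiated or reserve cells summed to between 50.9 and 63.5 FPKM in WT and between 41.5 and 47.996 FPKM in the other group, with 3 falls (Myf5, Cd34 and Mki67) and 1 rise (Spry1). Mean Myf5 went from 29.5 to 8.64 FPKM and mean Spry1 from 10.2 to 31.5 FPKM. Cd34, at means of 8.73 and 0.318 FPKM, passed the filter on low values only through WT. Pax7 averaged 0.930 and 0.994 FPKM, did not pass the filter and was not tested. The 6 myotube markers summed to between 3104 and 3415 FPKM in WT and between 8460 and 8884 FPKM in the other group. The 5 smooth muscle or myofibroblast markers summed to between 2195 and 2506 FPKM and between 2692 and 2782 FPKM, with Myh11 below 1 FPKM. Acta2 and Des made up most of these sums. Neither was called, nor was Tagln, and Cnn1 fell from a mean of 1.24 to 0.151 FPKM. Cnn1 passed the filter on low values only through WT. No marker of this list was called as a rise. The sums of every list but that of adipocytes differed between the groups without overlap. The 5 called members and 53.8% of all genes tested did so too. The endothelial sums were made of values below 1 FPKM each. The part of these cell types in the changes of the members was not tested.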

How the data were processed

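RNA-seq of 6 libraries was analysed, 3 WT and 3 labelled FHL3 KO. The submitters' processing notes name the build mm10, HISAT2 2.2.1, Trim Galore 0.6.6, DESeq2 1.28.1 and also featureCounts 2.0.1, without their roles. The values deposited by the authors were read as FPKM, a unit inferred from the values: decimals whose column sums differ. The annotation, strandedness and handling of shared reads were not given in the sources used here. Depth is unknown.

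Of 55420 rows, 7 sharing 3 repeated gene IDs were left out. IDs were matched to GENCODE M21 (GRCm38), which held 94.1% of them. A gene was kept if either group averaged 1 FPKM or more, and log2(FPKM + 1) was fitted across all 12528 genes with limma 3.58.1 in R 4.3.3 (mean-variance trend, two-sided, no covariates, Benjamini-Hochberg, threshold 0.05). Fold changes on this scale understate those of low genes. The fit was tested on simulated data. Shares are of summed FPKM.

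The members, lists and marker genes were chosen with earlier results of these data known. Genes were named by a rule: the 10 members, Fhl3, Myog, the 4 smallest p values and the minority calls of each list (all falls, where rises and falls tied), and the 3 nearest profiles of Cav1 and Cav3. Of the genes so named, 1 caveola accessory gene is not reported here. Other list genes and markers were named with their values already known. The alternatives comprised a pseudocount of 0.1, no filter or one at 5 FPKM, quantile normalization, 2 scalings, a replicate block, spline corrections (5 degrees of freedom) for length alone or with GC content, a threshold of 0.01, leaving out each library and length-weighted shares.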

Additional observations from a re-analysis of the deposited data

How the results depend on the processing

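Over 16 alternatives, Cav3, Cavin2, Cavin4 and Bin1 kept their direction and their call, as did Cav2 over the 15 that tested it (a filter at 5 FPKM left it out). The number of members called was 4 to 6. All genes called ranged from 3272 to 5273 with a library left out (3272 without WT replicate 2) and numbered 2695 at a threshold of 0.01. Caveola accessory genes called were 4 to 6 with a library left out, 11 after length and GC correction and 3 at a threshold of 0.01. Membrane curvature and T-tubule genes called were 5 to 10 with a library left out, 10 after quantile normalization and 10 after length correction. The rise in the Cav3 share was 30.3 percentage points weighted by exon length, against 23.3. Sign changes occurred in uncalled genes: Myof at 0.0229, Wdr11 at 0.10 and Ptprm at 0.15 after length correction, Cavin1 at -0.0219 and Wdr11 at 0.0309 after length and GC correction, and Ptprm at 0.14 after quantile normalization. With a library left out, Cav1 ran from -0.127 to 0.0432, Cavin3 from -0.23 to 0.0043, Ptprm from -0.0795 to 0.0701 and Zfp219 from -0.14 to 0.0320. Where no cause is given, the cause was not tested. Deviations of same-numbered libraries from their group means correlated at -0.13, -0.06 and 0.32. Those of differently numbered libraries ran from -0.38 to 0.37. Deviations from a mean of 3 libraries are tied to one another, so these values cannot show whether the numbers pair libraries. With the replicate block, 5 members were called, as without it, and the calls of Ehd2, Pip5k1a and Ehd4 ended (limma adjusted p = 0.066, 0.0777 and 0.0551). The block left 4 rises and 1 fall among caveola accessory genes, 7 and 4 among repair genes, and 4 and 2 among T-tubule genes. The unknown depth limits what can be said of genes below about 1 FPKM. The planned count tests were not run, as the values are not counts.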
